A study of Mus musculus with 6 samples.

Results

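The retinoic acid pathway was read through 9 genes in bladder cells of young mice that the labels call epithelial. The genes were the retinal dehydrogenases Aldh1a1, Aldh1a2 and Aldh1a3, the retinol carrier Rbp4, its receptor Stra6 and the retinal reductase Dhrs3. With them came the retinoic acid binding protein Crabp2 and the nuclear receptors Rarb and Rxra. Every probe set annotated to 1 of these genes alone was taken, which gave 13 of the 45037 probe sets other than controls, and 9 of 18193 genes, on Affymetrix Mouse Genome arrays. The cells came from bladders at postnatal day 7 of mice labelled male, of the strain FVB/N x C57BL/6, with the allele B6;129P-Upk1btm1Zhang/J as the gene reported, a label shared by both groups. One group was labelled DsRed-positive epithelial cells and the other DsRed-negative epithelial cells, each with 3 arrays numbered 1, 2 and 5. Markers given below show strong stromal transcripts in the group labelled DsRed-negative epithelial. The comparison asked which transcripts set cells with the red fluorescent reporter apart from cells without it. The labels state that samples were not pooled, but neither how the cells were parted nor that the numbers stand for different animals. The p-values here therefore rest on the scatter among these samples, which may be technical. The number of arrays, 3 in each group, limits the precision.

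Retinol, the alcohol form of vitamin A, travels in blood bound to Rbp4, and Stra6 lets it enter cells from that carrier. Alcohol and short-chain dehydrogenases oxidise retinol to retinal, Dhrs3 reduces retinal back to retinol, and the Aldh1a enzymes turn retinal into retinoic acid. Crabp2 hands retinoic acid to nuclear receptors, where a retinoic acid receptor such as Rarb pairs with a retinoid X receptor such as Rxra on DNA, and enzymes of the Cyp26 family clear the acid. In the bladder, vitamin A is known for its part in the upkeep of the urothelium, whose loss of retinoid supply leads to a keratinized lining.

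Receptor pairs bind repeats of a short half-site, and the promoters of the members were searched for them. RefSeq (GRCm38.p6) gave promoter windows of 300 bases, from 250 before to 50 after a start site, for 7 of the 9 members; Aldh1a3 and Crabp2 were not matched. Searched were the half-site AGGTCA, the variant GGGTCA, the variant AGTTCA and the variant GGTTCA, as direct repeats on either strand with 1, 2 or 5 bases between them (DR1, DR2 and DR5). The windows printed here held 1 repeat each, so no repeats overlapped. Among 15 windows of members, 1 held such a repeat, a DR5 in the promoter of Rarb from 53 to 37 bases before the start. It is shown because Rarb is both a receptor of the pathway and a classical target of it. The window of Cyp26a1, a gene of the breakdown step and another classical target, held a DR5 on the opposite strand from 32 to 16 bases before the start. Both are printed as the last 100 bases before the start, read along the gene's strand, with the DR5 in capitals.
Rarb (chr14:16575477-16575576, minus strand): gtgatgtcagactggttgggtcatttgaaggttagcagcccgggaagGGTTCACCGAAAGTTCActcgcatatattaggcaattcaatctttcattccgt
Cyp26a1 (chr19:37697708-37697807, plus strand): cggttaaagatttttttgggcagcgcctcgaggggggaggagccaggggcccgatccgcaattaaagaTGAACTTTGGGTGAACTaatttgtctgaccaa
Of 32851 promoter windows in the table, 32 (0.0974%) held a DR5, 88 (0.268%) a DR2 and 73 (0.222%) a DR1. A match of letters is a description and not a measured binding site.

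Several facts of the series bear on these genes. Signals are the deposited linear intensities, and tests used their log2 values after an offset of 39.84 and quantile normalization, so that folds of dim probe sets are compressed. The control level of an array is the 95th percentile of 27 control probe sets without a target in the sample, and it was 7.41 to 7.56 on that log2 scale in DsRed-positive arrays and 7.69 to 8.03 in DsRed-negative arrays. Upk1b, the uroplakin gene named in the labels, had a log2 signal of 16.62 ± 0.12 (SD, n = 3) in DsRed-positive arrays and 12.35 ± 0.88 in DsRed-negative arrays. Both arrays numbered 1 gave an Xist signal of at least 27373, where the other 4 arrays gave at most 259.6 on the same probe set, and they gave at most 31.2 on the brighter probe set of the Y-linked Eif2s3y against at least 3309 elsewhere. This goes against their label as male, so counts are also given without them.

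Marker lists of bladder cell types differed between the groups in the same arrays. All 12 urothelial markers rose in DsRed-positive cells, with a summed signal of 353979 to 552414 against 25065 to 47875. All 8 fibroblast markers fell, with sums of 14152 to 27197 against 589107 to 1420801, as did 4 of 5 tested smooth muscle markers (1950 to 2830 against 96641 to 187415), 4 of 5 endothelial markers (1072 to 1267 against 8379 to 12768) and 4 of 6 leukocyte markers (964 to 3026 against 19864 to 32642). Of 5 mesothelial markers, Msln rose and Muc16 did not pass, while Wt1 lay at or below the control level on every array. Wt1, Lrrn4 and Bnc1 were under the filter and not tested. The mesothelial sums were 1385 to 2151 against 752 to 1142. Msln alone gave 1112 to 1679 against 300 to 352, so the higher sums reflect mainly this gene. Neither of 2 tested nerve and Schwann cell markers passed (319 to 620 against 703 to 989). No marker was listed at 0. The cells labelled DsRed-negative epithelial thus carried both urothelial and stromal transcripts, and the part of this makeup in the results on retinoid genes was not tested. In such bulk samples, fewer cells of a type and less RNA per cell cannot be told apart.

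**Figure D1:**
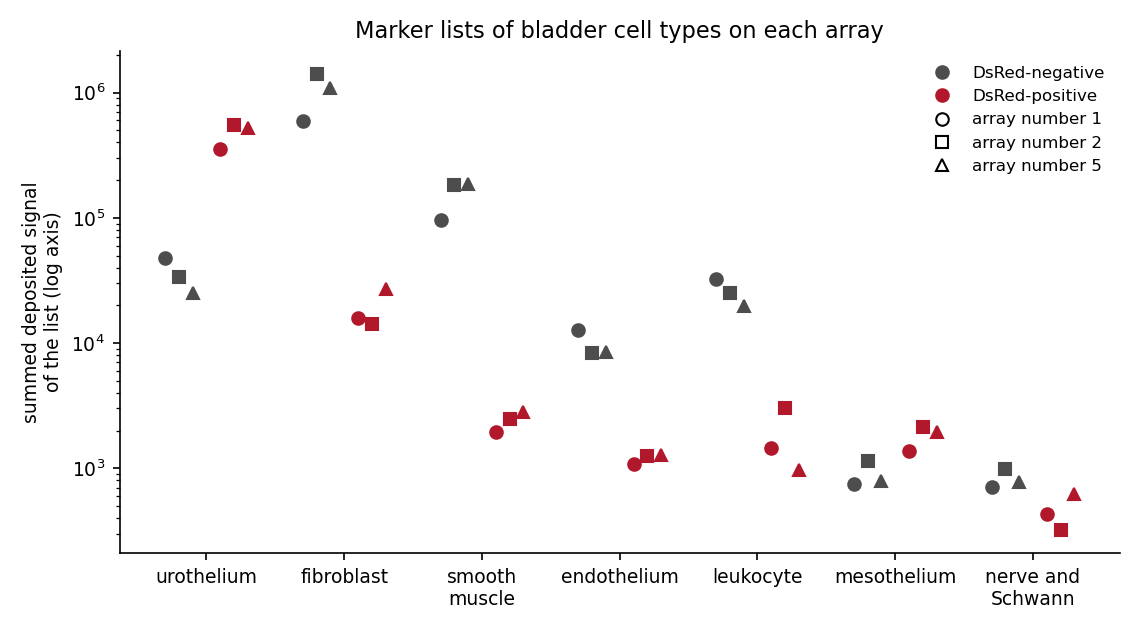
Summed deposited signal of 7 marker lists (log axis) on each of 6 arrays, DsRed-negative in grey and DsRed-positive in red, with the symbol giving the array number. Fibroblast sums lie between 589107 and 1420801 in DsRed-negative arrays and between 14152 and 27197 in DsRed-positive arrays, and urothelial sums run the other way.

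The retinoid members went in both directions. The enzymes Aldh1a1 and Aldh1a2, the carrier Rbp4 and its receptor Stra6 were lower in DsRed-positive cells, from at least 1.57-fold for Stra6 to 41.9-fold for Aldh1a2, whereas Dhrs3 (3.15-fold), Crabp2 (at least 2.12-fold) and the brightest probe set of Rxra (3.50-fold) were higher. Of the 13 member probe sets, 9 passed the filter on mean signal (a log2 mean above 7.18) and could be tested; the other 4 were all 3 probe sets of Aldh1a3 and 1 of Rxra. Among the 9, 3 (33.3%) were called higher and 4 (44.4%) lower at an adjusted p under 0.05, beside 8.63% higher and 8.62% lower among all 30175 probe sets tested (limma, Benjamini-Hochberg). These counts include Stra6 and Crabp2, which passed the filter only through the group where each is high (means of 8.14 in DsRed-negative arrays and 8.90 in DsRed-positive arrays, against 6.33 and 6.98 in the other group), so the counts are a description and support nothing. Without reference to any filter, the deposited signals of the groups did not overlap for 9 of the 13 probe sets, 3 (23.1%) with DsRed-positive arrays above and 6 (46.2%) with them below, where all probe sets gave 12.3% and 23.0%. The 6 include a probe set of Aldh1a3 that lay below the control level on every array. The higher calls were mostly lost without a DsRed-positive array: leaving out DsRed-positive 1 or DsRed-positive 5 gave 0 of them, and leaving out DsRed-positive 2 gave 1. Without DsRed-positive 1, 2 or 5, higher calls over all probe sets also fell, from 2605 to 1074, 1246 and 1344. In these fits the log2 changes were 1.53 to 1.78 for Dhrs3, 1.71 to 1.83 for Rxra and 1.71 to 2.20 for Crabp2. With all arrays they were 1.66, 1.81 and 1.92. Lower calls numbered 4 without any 1 of the DsRed-positive arrays and 3 without any 1 of the DsRed-negative arrays, where Stra6 no longer passed the filter. Without both arrays numbered 1, 0 were higher and 2 lower, with both numbered 2 left out 1 and 4, and with both numbered 5 left out 0 and 3.

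**Figure D2:**
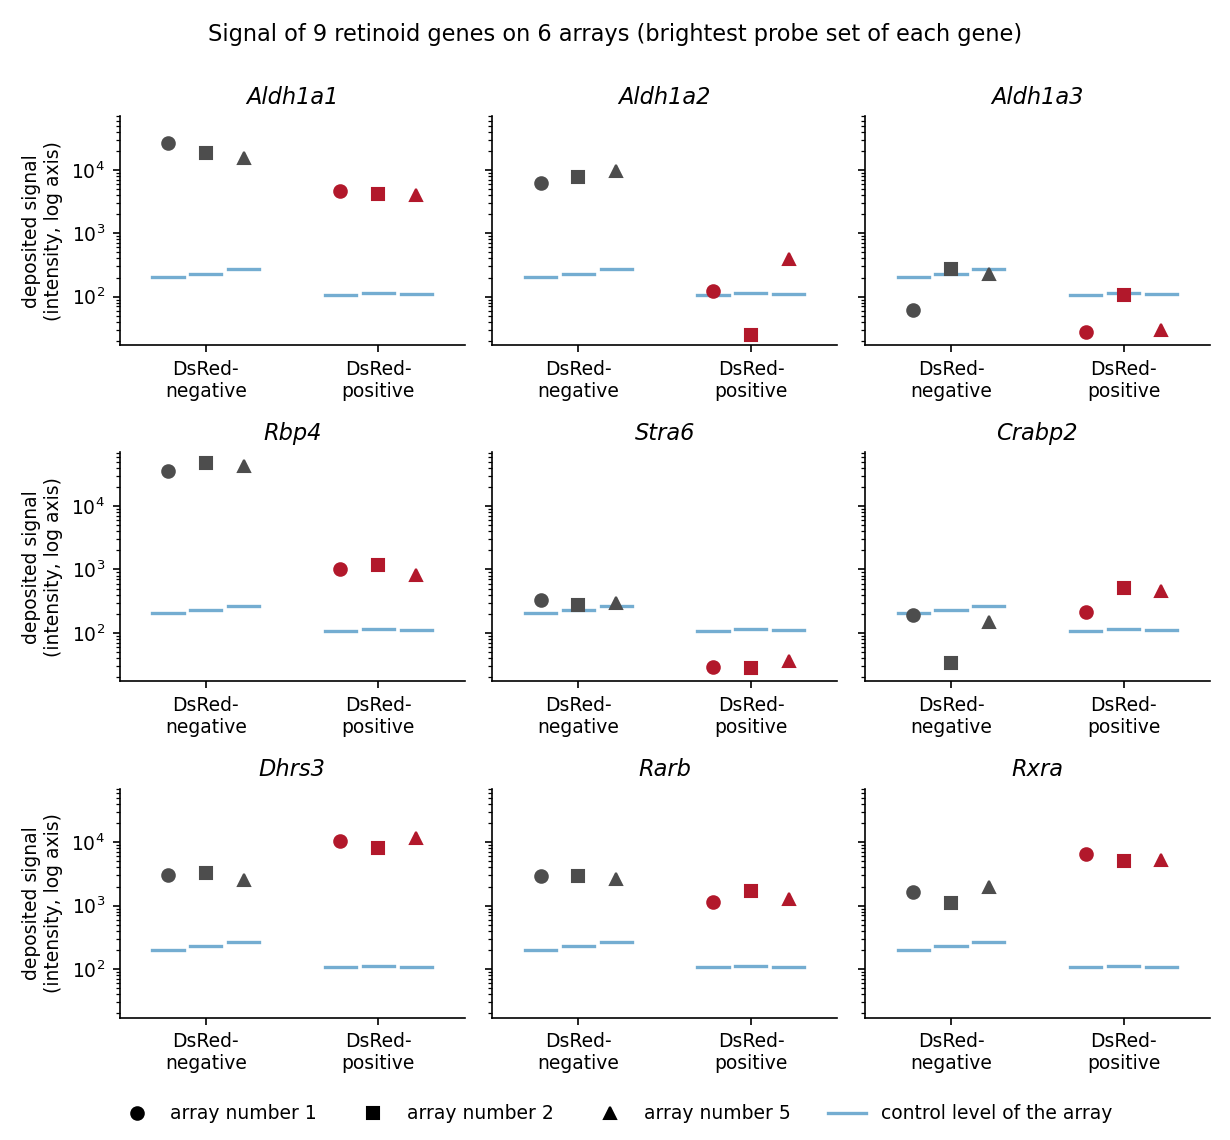
Deposited signal (intensity, log axis) of the brightest probe set of each of 9 retinoid genes, one point per array, with the array number as symbol and a blue bar at that array's control level. Rbp4 lies between 35824 and 48015 in DsRed-negative arrays and between 816 and 1160.2 in DsRed-positive arrays, while Aldh1a3 stays near or under the control level in both groups.

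Aldh1a2, the retinal dehydrogenase that supplies most retinoic acid in the embryo, was strongly lower in DsRed-positive cells, where 1 of 3 arrays lay below its control level. Its deposited signal was 6257.5, 7796 and 9466 in DsRed-negative arrays 1, 2 and 5, and 123, 25.0 and 393 in the DsRed-positive arrays of the same numbers. Every DsRed-negative array was thus far above every DsRed-positive one, and among the latter array 5 was the highest and array 2 the lowest and below its control level. On the normalized log2 scale the means were 7.59 ± 1.32 (SD, n = 3) in DsRed-positive and 12.98 ± 0.31 in DsRed-negative arrays, which is 41.9-fold lower, with a change of -5.39 ± 0.64 (SE) and an adjusted p of 0.00137. The differences between arrays of the same number were -4.96, -6.81 and -4.40, so the size varied over arrays while the direction did not. The call was kept in all 20 alternatives, with changes from -5.99 to -4.30. Without DsRed-positive 2, the array below its control level, it was -4.64. In the DsRed-positive arrays the summed fibroblast markers were also highest in array 5 (27197) and lowest in array 2 (14152), with 15898 in array 1. The single markers did not all share this order. Col3a1, the largest part of the sum, followed it (8712, 6764 and 15368 in arrays 1, 2 and 5), as did Dcn and Pdgfra. Lum ran the other way (476, 689 and 152). Col1a1, Col1a2 and Postn were lowest in array 1, and Pdgfrb was highest there. Leukocyte sums were highest in array 2 (3026) and lowest in array 5 (964). Whether these residual signals share a source was not tested.

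Aldh1a1, a second retinal dehydrogenase, also fell but kept a clear signal in DsRed-positive cells. It measured 26199.8, 18458 and 15260.1 in DsRed-negative arrays 1, 2 and 5 against 4626, 4142 and 4048 in DsRed-positive arrays. The DsRed-positive values lay close together, all of them well above the control level, and the groups did not overlap. The log2 means were 12.01 ± 0.05 against 14.26 ± 0.38, 4.76-fold lower, with a change of -2.25 ± 0.34 (SE) and an adjusted p of 0.00383. The call was lost only without both arrays numbered 1 (adjusted p = 0.0530), among 20 alternatives.

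Aldh1a3, the third enzyme of the group, gave little signal. Its brightest probe set had 61.9, 273 and 226 in DsRed-negative arrays 1, 2 and 5 and 28.0, 108 and 29.3 in DsRed-positive arrays. DsRed-negative 2 was the one array above its control level, and the groups overlapped. Its other probe sets ranged from 10.8 to 109.9 and from 6.28 to 33.7, all below the control levels. None was tested, since their log2 means (7.04, 6.65 and 5.79) were under the filter, and no difference in Aldh1a3 is read from these signals, the non-overlapping probe set included.

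The isozymes were also set against each other within arrays, which asks whether their differences between the groups were alike. Aldh1a1 minus Aldh1a2 was 2.02, 1.16 and 0.67 on the log2 scale in DsRed-negative arrays 1, 2 and 5 and 4.37, 5.79 and 3.10 in DsRed-positive arrays, so this difference was larger by 3.14 in DsRed-positive cells. The value of 5.79 sets Aldh1a1 against an Aldh1a2 signal below the control level, and without DsRed-positive 2 the shift was 2.40. All DsRed-positive arrays lay above all DsRed-negative ones, and the exact two-sided permutation test gave p = 0.10, the smallest that 3 arrays against 3 allow. Aldh1a3 minus Aldh1a2 shifted by 4.68, and Aldh1a3 minus Aldh1a1 shifted by 1.54 without overlap, but Aldh1a3 was near or under the control level, so both set an isozyme against background. Each gave p = 0.10 in the same exact permutation test, and Benjamini-Hochberg adjustment over the 3 shifts left it there.

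Rbp4, the carrier that brings retinol to cells, was also far lower in DsRed-positive cells. The order of Rbp4 and Aldh1a2 by size was not stable: Aldh1a2 differed more in the reported fit, but without DsRed-positive 2 Rbp4 gave -5.27 and Aldh1a2 -4.64. Its signal was 35824, 48015 and 42335 in DsRed-negative arrays 1, 2 and 5 and 999, 1160.2 and 816 in DsRed-positive arrays. The groups were widely separated with little spread inside each, and the DsRed-positive signal still exceeded the control level on all 3 arrays. The log2 means were 10.06 ± 0.28 against 15.22 ± 0.12, 35.8-fold lower, with a change of -5.16 ± 0.32 (SE) and an adjusted p of 0.000112. Same-numbered arrays differed by -5.05, -5.01 and -5.43, and the call was kept in all 20 alternatives.

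Stra6, the membrane receptor for the carrier, was detected only just above background. Its signal was 334, 271 and 298 in DsRed-negative arrays 1, 2 and 5, slightly above the control levels, and 29.1, 27.8 and 36.3 in DsRed-positive arrays, all below them. The groups did not overlap, and the fold against the control level was at least 1.57-fold lower, beside a fitted log2 change of -1.81 ± 0.32 (SE, adjusted p = 0.00766). The size of the fitted change moved with the offset, from -0.79 when the median of all signals was added to -2.56 when 1 was added. Stra6 fell under the filter without any 1 DsRed-negative array and kept its call without any 1 DsRed-positive array. Without both arrays numbered 5 the adjusted p was 0.0695.

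Dhrs3, which returns retinal to retinol and so acts against retinoic acid synthesis, went the other way. It measured 2996, 3232 and 2575 in DsRed-negative arrays 1, 2 and 5 and 10492, 8122 and 11614 in DsRed-positive arrays. All DsRed-positive arrays were higher, and both groups were far above the control level. The log2 means were 13.24 ± 0.27 against 11.58 ± 0.16, 3.15-fold higher with a change of 1.66 ± 0.33 (SE, adjusted p = 0.0125). Leaving out DsRed-positive 1 raised the adjusted p to 0.0572 and leaving out DsRed-positive 5 to 0.0547, with log2 changes of 1.64 and 1.53.

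Crabp2, the protein that delivers retinoic acid to its receptors, was present in DsRed-positive cells and at background in the others. Its signal was 188, 33.2 and 146 in DsRed-negative arrays 1, 2 and 5, all below the control level, and 209, 517 and 462 in DsRed-positive arrays, all above it. The gap between DsRed-negative 1 and DsRed-positive 1 was small, 188 against 209. Against the control level Crabp2 was at least 2.12-fold higher, beside a fitted log2 change of 1.92 ± 0.52 (SE, adjusted p = 0.0426). Crabp2 entered the test only through its DsRed-positive signal. Its call was lost without DsRed-negative 2 (adjusted p = 0.0680) or 5 (0.0639) and without DsRed-positive 1 (0.0741), 2 (0.142) or 5 (0.129), and with the values as deposited (0.0893). It was also lost with the number as a replicate block (0.0852).

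Rarb, the receptor whose promoter holds the DR5 shown above, had 2981, 2953 and 2613 in DsRed-negative arrays 1, 2 and 5 and 1135, 1674 and 1281 in DsRed-positive arrays. Every DsRed-positive array was below every DsRed-negative array on deposited and on normalized values. The log2 means were 10.47 ± 0.31 against 11.54 ± 0.10, a difference of -1.07 ± 0.33 (SE) that did not pass after adjustment (adjusted p = 0.0624). Over the 20 alternatives the adjusted p ran from 0.0256 to 0.314 and was under the threshold in 4, and centring each array on its median gave the smallest difference, -0.52.

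Rxra, the partner receptor, had probe sets that did not move alike. The brightest gave 1649, 1093 and 1979 in DsRed-negative arrays 1, 2 and 5 and 6478, 5120.3 and 5218 in DsRed-positive arrays, with no overlap, and rose 3.50-fold, by 1.81 ± 0.37 (SE) on the log2 scale (adjusted p = 0.0144). A second probe set gave 1025, 686 and 939 against 850.4, 1045 and 1609.7, which overlapped, and its difference of 0.54 ± 0.38 did not pass (adjusted p = 0.381). The third lay at 15.4 to 44.0, below the control level on every array. Averaging all 3 probe sets reduced the change to 0.81 (adjusted p = 0.0629). The call of the brightest one was lost without DsRed-positive 1 (0.0682), 2 (0.0523) or 5 (0.0513). Which transcripts each probe set reads is not given in the sources used here.

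**Figure D3:**
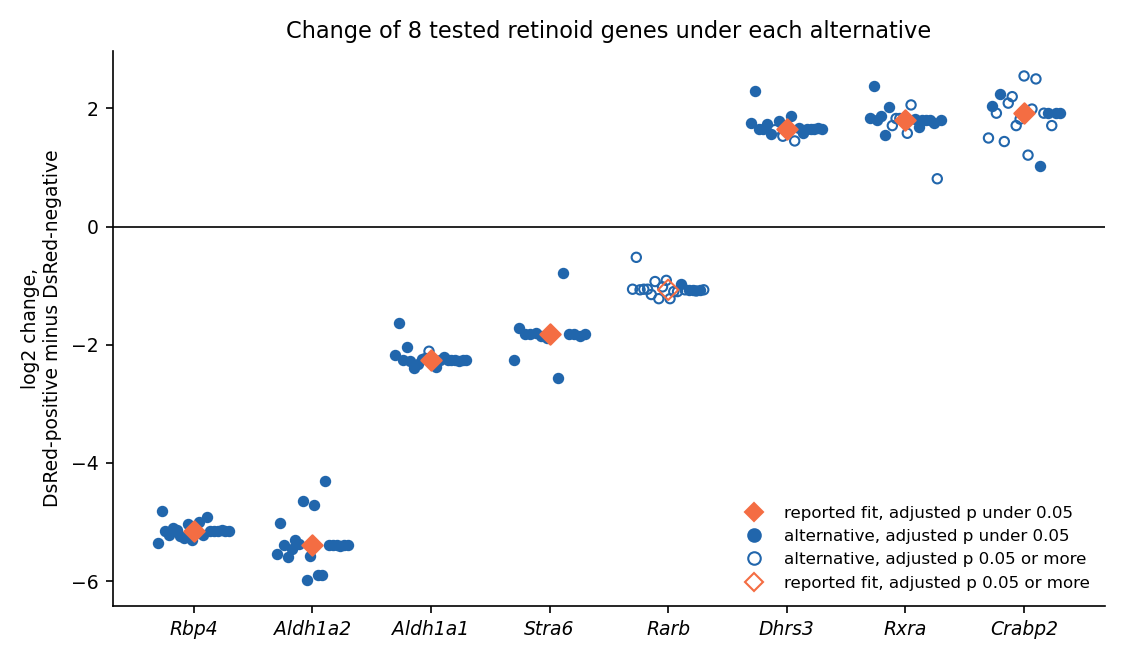
Log2 change, DsRed-positive minus DsRed-negative, of the 8 tested retinoid genes in the reported fit (orange diamonds) and in each alternative (blue circles, filled where the adjusted p was under 0.05). Rbp4 and Aldh1a2 stay below -4 in every alternative and Rarb between -1.22 and -0.52, mostly with open circles.

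A wider list of 62 genes of the pathway was read in the same fit, with the brightest probe set of each gene. Of these, 7 were not analysed here, 13 were under the filter and 42 were tested. Of the 42 tested, 6 were higher and 8 lower, beside 1310 (9.21%) and 1603 (11.3%) of all 14222 tested genes. Their median log2 change was -0.32 beside 0.04 for all tested genes. The 8 include Rarres2 and Nr2f1, which passed the filter only through their DsRed-negative signal (DsRed-positive means of 6.39 and 6.94). The counts are therefore a description and support nothing. The counts were 3 and 5 without DsRed-positive 1, 2 and 6 without DsRed-positive 2, and without both arrays numbered 1 they were 0 and 5. Over all probe sets the same fits gave 1074 higher and 1735 lower, 1246 and 1879, and 927 and 1253, where the reported fit gave 2605 and 2600.

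Of 14 tested enzymes that convert retinol and retinal, 1 was higher, 1 was lower and 12 did not pass. Among all tested genes 9.21% were higher and 11.3% lower. Adh7, an alcohol dehydrogenase of stratified and mucosal epithelia, rose by 1.58 (adjusted p = 0.0131), with 1480.6, 1254 and 1256 in DsRed-positive arrays 1, 2 and 5 against 552, 528 and 424. Its other probe set was also called, at least 9.01-fold higher since all DsRed-negative arrays were at or below the control level. That probe set entered the test only through its DsRed-positive signal (DsRed-negative mean of 6.25), so its call adds no support. The call on the brightest probe set was lost without DsRed-positive 1 (0.0693) or 2 (0.0556). Cyp1b1, a cytochrome that can oxidise retinoids among many substrates, fell by 3.67 on the log2 scale (adjusted p = 0.00391), although only 1 of its 3 probe sets was called. Another gave -2.83 without overlap and missed the threshold (adjusted p = 0.0644). The dimmest gave 0.13 and lay above the control level on only 2 DsRed-positive arrays and 1 DsRed-negative array. Rdh10, the dehydrogenase that makes most embryonic retinal, had a value of 0.41 (adjusted p = 0.638), with 19974, 15064 and 7012 in DsRed-positive arrays and 8223, 15296 and 6699.8 in DsRed-negative arrays, so the groups overlapped.

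In storage and transport, Retsat, which saturates retinol, rose by 2.14 (adjusted p = 0.0137, and 0.0701 and 0.0615 without DsRed-positive 1 or 2). Its other probe set overlapped between the groups and was not called (1.61, adjusted p = 0.0931). Ttr, transthyretin, the plasma partner of Rbp4, rose by 3.60 ± 0.83 (SE, adjusted p = 0.0238), from 136, 79.7 and 684 in DsRed-negative arrays 1, 2 and 5 to 1137, 2329 and 6220.5 in DsRed-positive arrays. It thus went the opposite way to Rbp4, but its call was lost without DsRed-negative 1 (0.0695) or 2 (0.0535) and without DsRed-positive 2 (0.0730) or 5 (0.0795). Of its 4 probe sets 3 were called higher. Those with DsRed-negative means of 6.91 and 6.36 passed the filter only through their DsRed-positive signal, and the former overlapped between the groups. The probe set not called also overlapped (2.16, adjusted p = 0.152). Fabp5, a fatty acid binding protein that can also carry retinoic acid, rose by 1.64 (adjusted p = 0.0107; with the values as deposited 1.00 and 0.129), and both of its probe sets were called. Scarb1, a lipoprotein receptor that takes up carotenoids, fell by 1.57 on the log2 scale (adjusted p = 0.0288) with a call lost in 5 of the 6 fits without 1 array, up to 0.117 without DsRed-positive 1. With each array centred on its median it was -0.96 (adjusted p = 0.130). Of its 3 probe sets 2 were called lower, and the other gave -0.89 (adjusted p = 0.218).

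The breakdown enzymes had opposite signs and neither passed. Cyp26a1 gave 247, 354 and 286 in DsRed-positive arrays 1, 2 and 5 against 259, 156 and 158, a difference of 1.05 (adjusted p = 0.0850), with overlap in the deposited signals. DsRed-negative arrays 2 and 5 lay below their control levels of 230 and 268. Cyp26b1 gave 430.4, 1026 and 512 against 1478, 2199 and 1318, a difference of -1.20 (adjusted p = 0.0955), with no overlap.

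Among 8 tested receptors and coregulators, Rara (-0.26), Rarg (0.20) and Rxrb (-0.60) did not pass. Nrip1, a corepressor that is itself retinoic acid responsive, rose by 2.00 ± 0.32 (SE, adjusted p = 0.00536), from 11486, 9184 and 8222 in DsRed-negative arrays 1, 2 and 5 to 33865, 39032 and 34212 in DsRed-positive arrays. Of its 6 probe sets 4 were called higher and 1 gave -1.37. The dimmest of the 4 entered the test only through its DsRed-positive signal (DsRed-negative mean of 6.39). Ncoa2, a coactivator, fell by 1.54 on the log2 scale on its brightest probe set (adjusted p = 0.0246), but its other probe sets gave 0.12, 0.06 and -0.17, the mean of all 4 was -0.38 (adjusted p = 0.370), and the call was lost in 5 of the 6 fits without 1 array, up to 0.0915 without DsRed-positive 5.

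Of 10 tested genes known to respond to retinoic acid in other settings, 5 were called lower, 1 higher and 4 were not called. Their median log2 change was -1.74. Among all tested genes 11.3% were lower and 9.21% higher, with a median of 0.04. Among the 5, Rarres2 and Nr2f1 passed the filter only through their DsRed-negative signal (DsRed-positive means of 6.39 and 6.94), so the counts are a description and support nothing. Rarres2, which encodes the adipokine chemerin, was the most extreme, with 14787, 17488 and 15921 in DsRed-negative arrays 1, 2 and 5 and 24.2, 25.9 and 54.6 in DsRed-positive arrays, all of the latter below the control level, which made it at least 90.3-fold lower (adjusted p = 7.43e-05). The homeobox gene Meis2 fell by 4.17 on the log2 scale (adjusted p = 0.000398), the crosslinking enzyme Tgm2 fell by 2.75 (0.00174), Rarres1 fell by 2.40 (0.00326) and the orphan receptor Nr2f1 fell by 2.27 (0.0193, and 0.0751 without DsRed-positive 1). The calls of Rarres2, Meis2, Tgm2 and Rarres1 were kept in every alternative in which they were tested. Of their probe sets, 5 of 6 for Tgm2, 3 of 4 for Meis2 and 2 of 3 for Rarres2 were called lower. The dimmest called probe set of Tgm2 (DsRed-positive mean of 6.39) passed the filter only through its DsRed-negative signal. The same holds for both called probe sets of Rarres2 (6.26 and 6.39), so these calls add no support. The remaining probe set of Tgm2 overlapped (-0.42, adjusted p = 0.546). Those of Meis2 (0.01) and Rarres2 (-1.08) were not tested. Zfp703, a zinc finger gene, rose by 1.37 (adjusted p = 0.0380), a call lost in all 6 fits without 1 array (up to 0.134 without DsRed-positive 1). Fibroblast, muscle and vessel markers were lower in the same arrays as the genes that fell, and their part in these results was not tested.

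**Figure D4:**
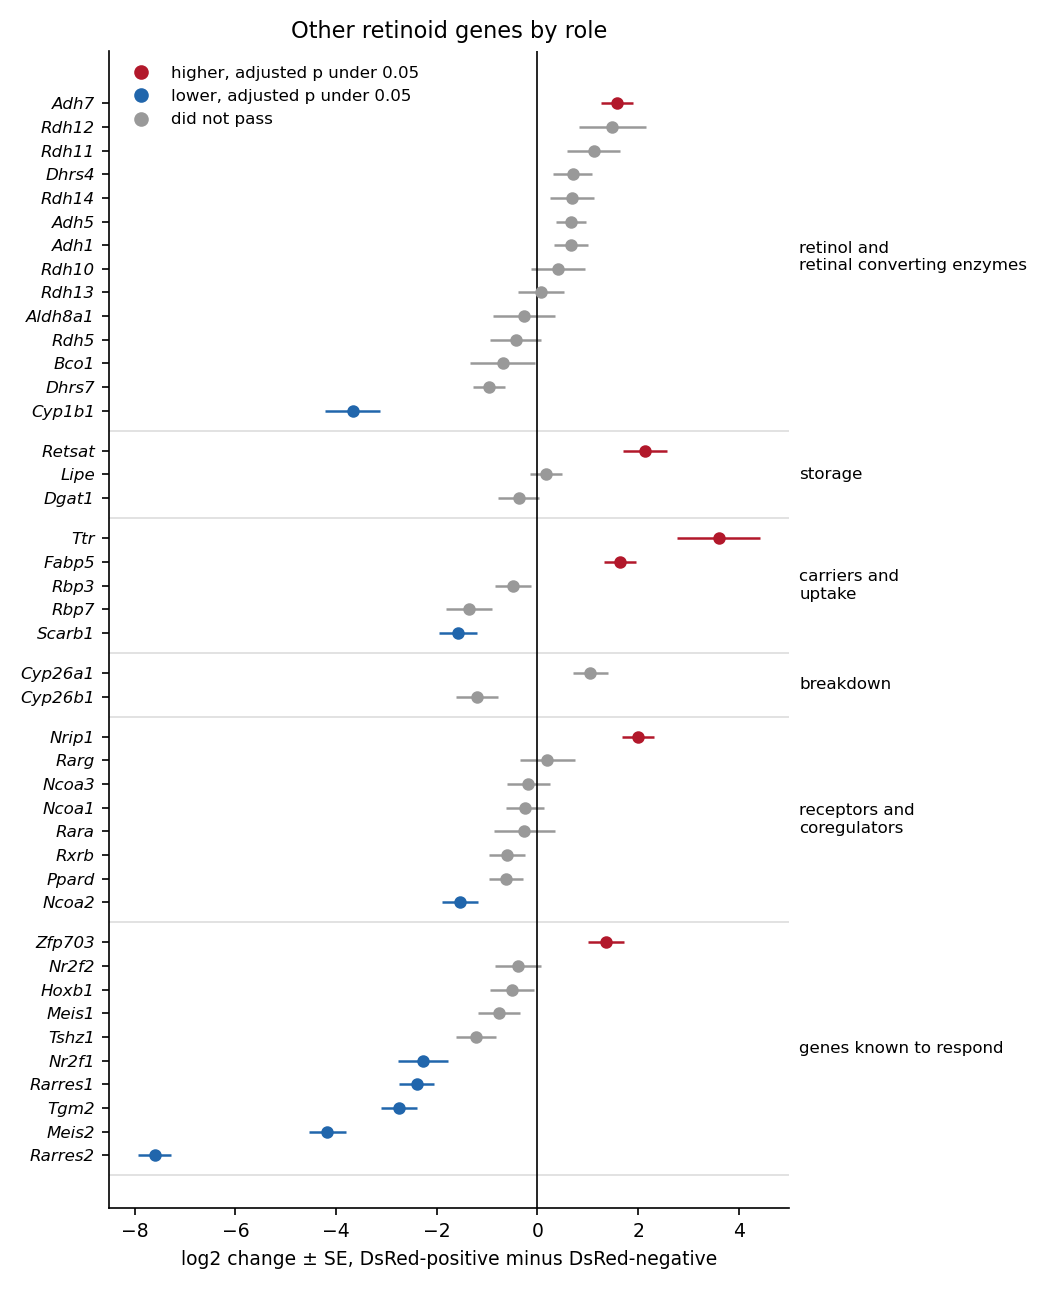
Log2 change ± SE, DsRed-positive minus DsRed-negative, of 42 tested genes of the wider retinoid list, grouped by role and coloured by call. Most enzymes and receptors are in grey, which marks genes that did not pass and does not show that they were unchanged. Of the 10 responsive genes 5 are lower, beside 11.3% of all tested genes. The point of Rarres2 is its fitted value, set by DsRed-positive signals below the control level, and the bound is at least 90.3-fold.

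The genes with the most similar profiles over the 6 arrays were found by the root-mean-square difference of log2 signals after centring each gene on its own mean. For Aldh1a2 they were Htra3, a serine protease gene (difference 0.18), and Tcf21, a mesenchymal transcription factor (0.25), and for Rbp4 Cebpd (0.18) and Thsd4 (0.19). For Aldh1a1 they were Ryk and Foxj2 (0.11 each), for Stra6 Pdia5 (0.10) and Tspan9 (0.12), and for Rarb Chrnb1 (0.08) and Iqsec2 (0.09). On the higher side, Dhrs3 was nearest to Pex3 (0.06) and Gpalpp1 (0.13), Rxra to Sort1 and Slc12a8 (0.08 each), and Crabp2 to Mettl16 (0.12) and Rtel1 (0.17). The 6 arrays fall into 2 groups that differ in most of these genes, and this nearness is a description with no test.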

How the data were processed

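The authors deposited 1 linear intensity per probe set and array, and the submitters' processing notes name GCOS, with its version and scaling not given in the sources used here. RNA was amplified in 2 rounds, per the labels. The mean trimmed by 2% at each end was 1500.01 in each of the 6 arrays, which shows scaling before deposition. An offset of 39.84 (20th percentile of all values) was added, and log2 values were quantile normalized because array medians spanned 0.74, more than 0.2. After removal of 64 control probe sets, the 30175 whose mean exceeded the 33rd percentile (7.18) entered a two-sided limma 3.58.1 test in R 4.3.3 (lmFit, eBayes) on all 6 arrays. P-values were Benjamini-Hochberg adjusted over these, with a threshold of 0.05. Symbols came from the platform annotation updated through gene IDs: 34945 probe sets had 1, 932 several and 9160 none here. Each gene was read on the brightest probe set annotated to it alone. Errors of signals are SDs over 3 arrays. Folds are of offset, normalized values; where all arrays of a group lay at or below the control level, the fold is against that level, per array. Named were all members, Upk1b, the wider list's called genes, the 2 nearest profiles of each tested member and marker lists; other genes of the wider list are given by value. The members and lists were chosen with earlier results of these data known. Alternatives changed the scaling, offset, filter, variance model, array weights, probe set choice, a replicate block, and left out arrays singly or by number. The fit was tested on simulated data.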

Additional observations from a re-analysis of the deposited data

How the results depend on the processing

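The scaling set the balance of directions. After quantile normalization 2605 probe sets were higher and 2600 lower, and the median change of all tested was 0.09. Deposited values gave 2253 and 3549 (38.8% higher, median -0.19), and median-centred arrays gave 4871 and 2313 (67.8% higher, median 0.35). No member's tested probe set changed direction in the alternatives that could be run for it, 14 for Stra6, 19 for Crabp2 and Dhrs3, 18 for the second probe set of Rxra and 20 for the others. Without 1 array the probe sets called higher ranged from 1074 to 2613, those of the members from 0 to 3, and the wider retinoid list from 2 to 5 higher and 5 to 8 lower. Without both arrays numbered 1, 2 or 5 the probe sets called higher numbered 927, 1345 and 983, those of the members 0, 1 and 0, and the wider list's higher genes 0, 2 and 2. Without both numbered 1, 1253 probe sets were lower, 2 of them members, and 5 genes of the wider list; without both numbered 5, 1431 probe sets and 4 genes. Probe sets without _s_at, _x_at and _a_at left 4 lower genes of the wider list, since fewer probe sets were read. Fits without arrays rest on fewer samples; the cause of the shift with median centring was not tested. With the number as a replicate block, 2 member probe sets were higher and 4 lower (Crabp2 adjusted p = 0.0852), and 2123 and 2281 in all; Scarb1 (0.0507) and Zfp703 (0.0763) also missed the threshold. Same-numbered arrays deviated together by correlations of 0.15, 0.04 and 0.05, each the best of its array, but not all above 0.1, so the numbers were not taken as pairs. Both arrays numbered 1 did share the high Xist and low Eif2s3y signals given above, unlike the arrays numbered 2 and 5. Same-numbered arrays may thus share a source, and the block fit serves that case. Among the members, signals near the control level limit Aldh1a3, Stra6 and Crabp2.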
